A study of Mus musculus with 2 samples.

Results

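The cell cycle genes followed here are 41 genes taken by symbol, with no threshold on a measured value. They comprise 22 genes that act in G2 and mitosis (G2/M genes) and 19 that act in DNA synthesis (S genes), out of 32285 genes in each count table. They were measured by droplet-based single-cell RNA-seq of pancreatic tumours grown from implanted KPC cells, which are mouse pancreatic cancer cells. Both groups were littermates carrying the floxed Porcnfl/fl alleles, and the tumours were taken on day 21. The knockout group also carried Csf1r-Cre (Csf1r-Cre;Porcnfl/fl), a recombinase driven by the promoter of Csf1r, which is active in macrophages and some other myeloid cells, and the control group did not (Porcnfl/fl, labelled WT). Porcn encodes the enzyme that lipidates WNT proteins before they are secreted, and the alleles are those of the host mice. In each group the tumours of 5 mice were pooled into 1 library, so there was no replicate, no test between the groups and no estimate of the spread between mice. Every difference below lies between these 2 libraries, and all intervals are exact 95% intervals that cover counting error only. UMIs of 1 cell are not independent of each other, so where few cells hold most of the UMIs the true error is wider than the interval.

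Cells pass from G1 into S phase when E cyclins with their kinase release E2F factors from the pocket proteins, and E2F factors then switch on the genes for origin licensing, the replicative helicase and nucleotide synthesis. Later in the cycle the MuvB complex with B-Myb and FOXM1 switches on the genes for mitotic cyclins, kinases, the spindle and the centromere. In most non-dividing cells the same genes are held silent by the DREAM complex, which binds through E2F sites and through the cell cycle homology region (CHR). The level of these transcripts in a pool of cells is therefore commonly read as a measure of how many cells are in the cycle, and the S and G2/M genes mark different parts of it.

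The promoters of the 2 most abundant G2/M genes and the 2 most abundant S genes with a RefSeq entry are shown because the printed letters show how the 2 groups of members differ. Each line gives the 250 bases before the RefSeq start, 5′ to 3′ on the strand of the gene, on GRCm38.p6. Capitals mark CHR letters (TTTGAA or TTCGAA), the NF-Y box (CCAAT) and E2F letters (GCGGGAA or GCGCGAA), each searched on both strands. A CCAAT on one strand may overlap one on the other.
Top2a (chr11:99024190-99024439, minus strand): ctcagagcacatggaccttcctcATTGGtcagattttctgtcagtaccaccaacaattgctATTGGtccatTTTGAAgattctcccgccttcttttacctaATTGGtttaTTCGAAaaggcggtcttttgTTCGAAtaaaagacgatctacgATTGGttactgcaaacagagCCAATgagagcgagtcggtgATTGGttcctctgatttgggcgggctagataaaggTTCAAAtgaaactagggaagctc
Ube2c (chr2:164769679-164769928, plus strand): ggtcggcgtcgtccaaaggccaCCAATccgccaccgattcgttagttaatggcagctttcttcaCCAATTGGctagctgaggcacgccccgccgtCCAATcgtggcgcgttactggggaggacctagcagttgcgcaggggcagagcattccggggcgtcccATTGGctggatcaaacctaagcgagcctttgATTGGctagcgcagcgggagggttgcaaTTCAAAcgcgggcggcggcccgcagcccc
Pcna (chr2:132253181-132253430, minus strand): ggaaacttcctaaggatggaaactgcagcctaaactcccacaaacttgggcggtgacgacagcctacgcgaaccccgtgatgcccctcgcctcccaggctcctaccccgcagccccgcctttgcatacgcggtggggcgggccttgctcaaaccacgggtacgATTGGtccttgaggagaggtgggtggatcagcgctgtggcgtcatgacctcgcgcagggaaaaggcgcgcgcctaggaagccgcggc
Mcm6 (chr1:128359706-128359955, minus strand): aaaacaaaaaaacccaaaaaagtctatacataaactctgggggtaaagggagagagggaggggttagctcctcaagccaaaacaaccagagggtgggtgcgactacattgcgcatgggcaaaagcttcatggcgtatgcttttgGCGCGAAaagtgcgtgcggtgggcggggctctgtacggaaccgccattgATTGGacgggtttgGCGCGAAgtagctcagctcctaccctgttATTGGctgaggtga

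The Top2a stretch held 4 CHR matches and 6 NF-Y matches, and the Ube2c stretch held 1 CHR match and 6 NF-Y matches. Pcna had 1 NF-Y match and no CHR or E2F match. Mcm6 had 2 NF-Y matches and 2 E2F matches, and no CHR match. RefSeq promoters, counted over 300 bases from 250 before to 50 after the start, were found for 35 of the 41 members. A CHR match was present in 15 of 19 G2/M promoters (78.9%) and in 4 of 16 S promoters, against 19.2% of all 32851 RefSeq promoters. CCAAT was present in 16 of 19 G2/M promoters (84.2%) and 10 of 16 S promoters (62.5%), against 37.4% of all. E2F letters were present in 2 of 19 G2/M promoters (10.5%) and 8 of 16 S promoters, against 1972 of all 32851. CHR and CCAAT stood together in 14 of 19 G2/M promoters (73.7%), in 3 of 16 S promoters (18.8%) and in 7.52% of all. These matches describe letters in the window and not bound sites.

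The control table held 173934025 UMIs in 13766 barcodes, of which 11516 cells were kept at a median of 12168 UMIs. The knockout table held 137527647 UMIs in 12251 barcodes, of which 10467 cells were kept at a median of 10109 UMIs. The libraries shared 46 barcodes, 38 of them among kept cells. Porcn, the gene to be deleted, was too sparse in the targeted cells to check the labels: monocyte/macrophage-like cells held 8 control UMIs (3.28 CPM, counts scaled to the summed UMIs of the same class and library) and 4 knockout UMIs (1.41 CPM), a ratio of 0.429 (0.0946 to 1.60). Epithelial/tumour-like cells, which are not meant to carry the deletion, held Porcn at 7.42 and 5.03 CPM, a ratio of 0.678 (0.608 to 0.755). The 41 members together gave 140874 control UMIs and 113917 knockout UMIs. Levels below are CPM from 3′ counts and are compared between libraries and not between genes.

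Over all kept cells the members differed little between the libraries. G2/M genes summed to 497 CPM (494 to 501) in control cells and 523 CPM (519 to 527) in knockout cells, and S genes to 337 CPM (335 to 340) and 358 CPM (355 to 362), ratios of 1.05 (1.04 to 1.06) and 1.06 (1.05 to 1.07). The classes that make up these pools differed more, as the plot of summed levels by cell class shows. Clusters were named from marker genes with the cell cycle genes left out of the clustering. The largest class, epithelial/tumour-like cells, had 9043 control cells and 5450 knockout cells. T-like cells numbered 189 and 1631, fibroblast-like cells 383 and 705, monocyte/macrophage-like cells 509 and 560, and neutrophil-like cells 293 and 185. These 5 classes had at least 100 cells in each library and were compared gene by gene.

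**Figure D1:**
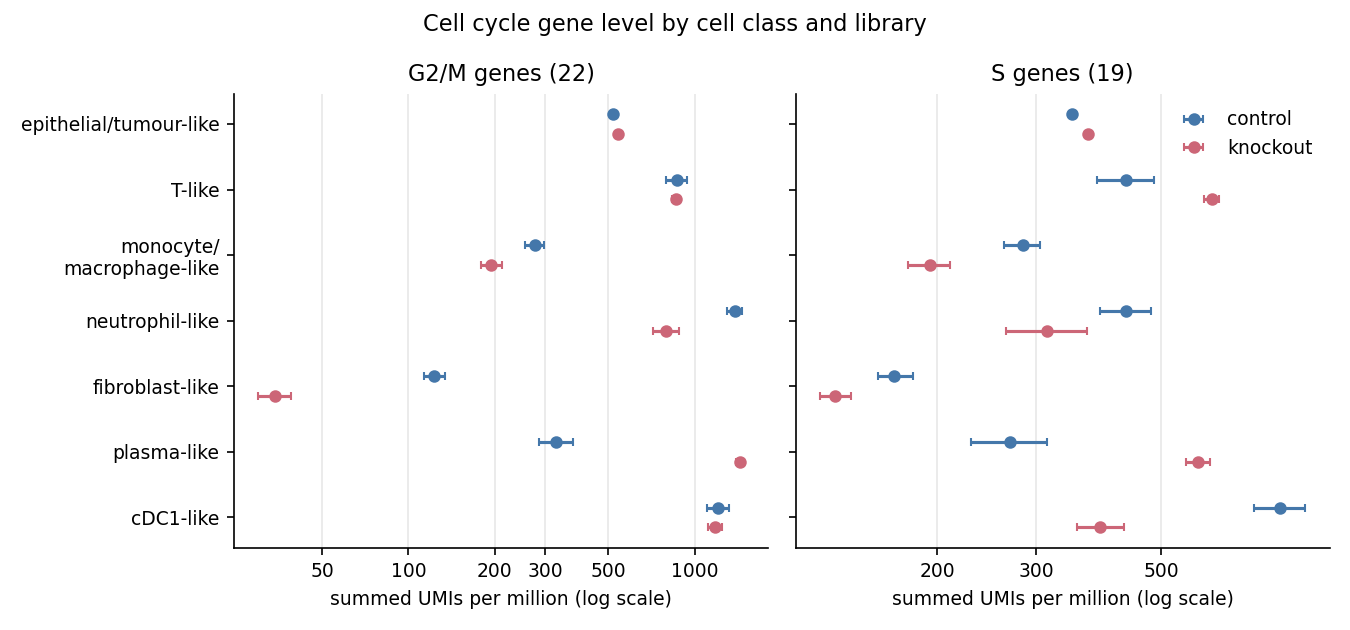
Summed level of the 22 G2/M genes (left) and 19 S genes (right) in 7 cell classes, as CPM on a log axis, for the control library (blue) and the knockout library (red). Bars are exact 95% Poisson intervals for counting error. Tumour-like values lie close together, fibroblast-like G2/M genes lie apart at 123 and 34.2 CPM, and plasma-like G2/M genes lie apart the other way at 329 and 1443 CPM.

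In epithelial/tumour-like cells, the class that holds the cancer cells, every cell cycle gene lay within 1.5-fold of control. G2/M genes summed to 520 CPM (516 to 523) in control cells and 542 CPM (537 to 546) in knockout cells, a ratio of 1.04 (1.03 to 1.05). S genes summed to 347 CPM (344 to 350) and 370 CPM (366 to 374), a ratio of 1.07 (1.05 to 1.08). Of the 41 members, all of which had at least 20 UMIs, 0 were higher and 0 were lower past 1.5-fold, where 9.70% of 17378 genes were higher and 6.67% were lower. The median log2 ratio was 0.05 for G2/M genes and 0.09 for S genes, beside -0.06 over all genes. By sign, 32 members were above 0 and 9 below.

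Among the G2/M genes of these cells, Mki67 (chr7:135689784-135716361, GRCm38, GENCODE M21, as for the genes below), which encodes the Ki-67 coat protein of mitotic chromosomes, stood at 40.4 CPM in control cells and 41.2 CPM in knockout cells. Top2a (chr11:98992943-99024189), the topoisomerase that untangles chromosomes before they separate, stood at 76.0 and 85.8 CPM. Cdk1, the kinase that drives entry into mitosis, stood at 35.6 and 36.6 CPM. Its cyclin Ccnb1 stood at 10.4 and 10.6 CPM, so that the kinase and its partner were both level. The largest log2 ratios in this list were 0.23 for Nusap1 (17.9 and 21.0 CPM), a spindle protein, and 0.19 for the B cyclin Ccnb2 (17.3 and 19.8 CPM). The lowest were -0.15 for Birc5 (37.5 and 33.9 CPM), survivin of the chromosomal passenger complex, and -0.12 for the mitotic kinase Plk1 (7.35 and 6.77 CPM). By role, the 5 spindle genes had a summed ratio of 1.10 (1.07 to 1.13) and the 7 kinases and cyclins one of 1.04 (1.01 to 1.06). The 3 centromere genes had 1.02 (0.993 to 1.05), and the 5 checkpoint and anaphase genes 0.973 (0.952 to 0.996).

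Among the S genes, Pcna (chr2:132249162-132253314), the sliding clamp of the replication fork, stood at 64.4 and 66.4 CPM. Mcm5 (chr8:75109569-75128439), a subunit of the replicative helicase, stood at 8.20 and 9.01 CPM. The E cyclins Ccne1 (1.39 and 1.43 CPM) and Ccne2 (6.86 and 7.65 CPM) were level as well. The 2 members farthest from control were both S genes, and they lay on opposite sides. Mcm2, another helicase subunit, was lower at 10.4 and 7.80 CPM, a ratio of 0.749 (0.686 to 0.817). Rrm2, the small subunit of ribonucleotide reductase that makes deoxynucleotides, was higher at 39.7 and 50.1 CPM, a ratio of 1.26 (1.21 to 1.31). Its partner Rrm1 (22.5 and 21.1 CPM) and the thymidylate synthase Tyms (26.6 and 25.1 CPM) had log2 ratios of -0.09 and -0.08. The helicase subunit Mcm7 (26.5 and 30.9 CPM) and the uracil glycosylase Ung (2.93 and 3.44 CPM) had 0.22 and 0.23. The 6 helicase subunits together had a ratio of 1.07 (1.04 to 1.09), although Mcm2 on its own was below 1.

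**Figure D2:**
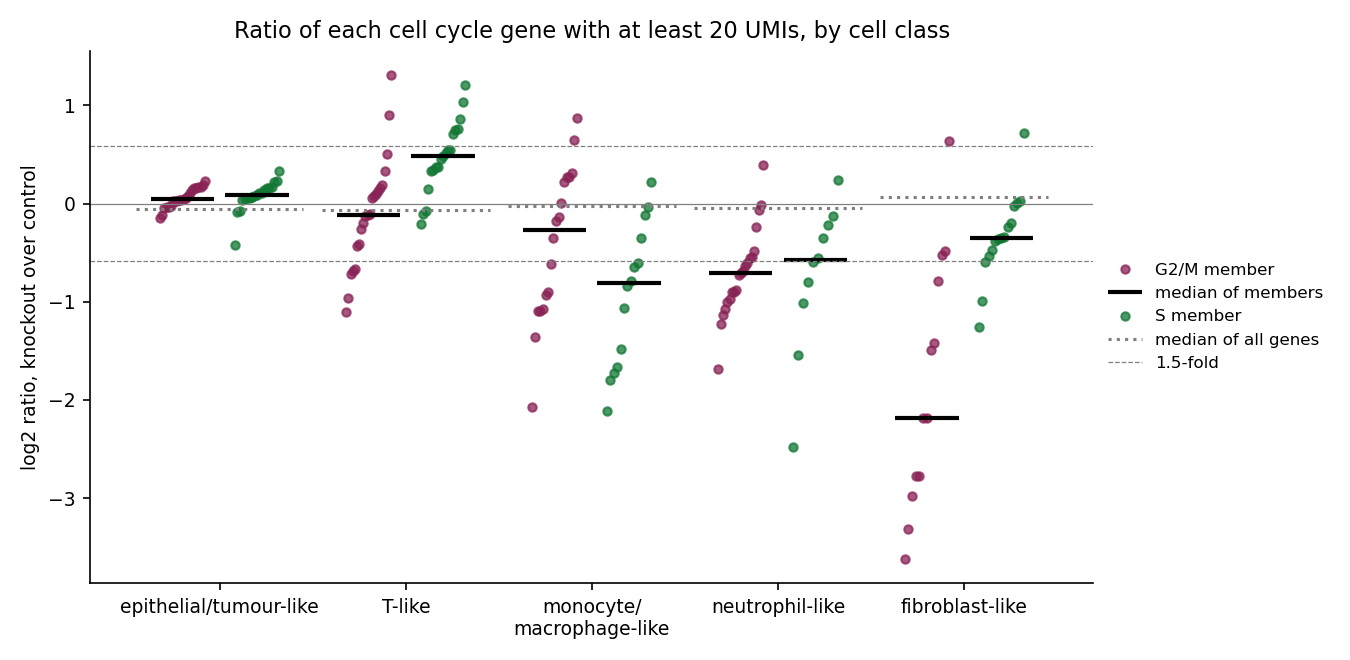
Log2 ratio of knockout over control for each cell cycle gene with at least 20 UMIs in 5 cell classes, G2/M genes in purple and S genes in green. Black bars are medians of the members, dotted lines are medians of all genes with at least 20 UMIs, and dashed lines mark 1.5-fold. All 41 members lie between -0.42 and 0.33 in tumour-like cells, S genes lie above G2/M genes in T-like cells (medians 0.48 and -0.12), and fibroblast-like G2/M genes reach -3.62.

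The other genes of the cycle were level in tumour-like cells too. In 5 further lists 0 genes with at least 20 UMIs were past 1.5-fold in either direction. The median log2 ratio was 0.11 over 30 other S phase genes, 0.02 over 37 other G2 and M phase genes, -0.13 over 7 G1 cyclins and kinases, -0.08 over 13 E2F and pocket proteins, and -0.13 over 11 CDK inhibitors and p53 targets. Of the other S phase genes the chromatin assembly gene Chaf1b (0.34), the cohesion loader Dscc1 (0.33) and the checkpoint gene Clspn (0.28) were highest, and E2f8 (-0.22) and Pole (-0.10) were among the lowest. Of the other G2 and M phase genes Psrc1 (0.43), the securin gene Pttg1 (0.31) and Hmgb2 (0.28) were highest. Foxm1, which encodes the activator of the late genes named above, was lowest at 4.60 CPM in control cells and 3.07 CPM in knockout cells, a ratio of 0.667 (0.581 to 0.765), next to the fold of 1.5. Next came Cks1b (-0.27) and the separase gene Espl1 (-0.26). All 7 G1 genes were at or below 0: Ccnd2 (210 and 162 CPM), Ccnd3 (73.7 and 59.2 CPM) and Cdk2 (6.94 and 5.83 CPM) were lowest, and Ccnd1 (704 and 662 CPM) and Cdk4 (145 and 140 CPM) were near control. Among the inhibitors Cdkn1c (-0.56), Btg2 (-0.38) and the p16 and p19 locus Cdkn2a (490 and 381 CPM, -0.36) were lowest. Mdm2 (33.4 and 40.4 CPM, 0.27), Cdkn1b (0.11) and Cdkn2d (0.01) were highest. In the E2F list E2f5 (0.13), Lin9 (0.09) and E2f4 (0.07) were highest and E2f6 (-0.23), Rbl2 (-0.18) and E2f3 (-0.14) lowest.

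To count cells rather than transcripts, each cell with at least 2000 UMIs was thinned at random to 2000 UMIs, because cells and libraries differ in depth, and a cell was counted when it held at least 2 different members of a list. Shallower cells were left out of the thinned shares: 143 control and 103 knockout tumour-like cells, 55 and 274 T-like cells, 15 and 32 fibroblast-like cells, 180 and 130 monocyte/macrophage-like cells, and 187 and 111 neutrophil-like cells. In tumour-like cells 553 of 8900 control cells (6.21%, interval 5.72 to 6.74) and 382 of 5347 knockout cells (7.14%, interval 6.47 to 7.87) held at least 2 G2/M genes. At least 2 S genes were held by 797 control cells (8.96%) and 545 knockout cells (10.2%). Before thinning the G2/M shares were 22.5% and 26.3%, and the S shares 64.5% and 69.2%, at class medians of 13671 and 15631 UMIs. A UMI of Mki67 was left in 3.16% of control cells and 3.48% of knockout cells, and one of Top2a in 5.51% and 6.21%. For Pcna these shares were 9.76% and 10.6%, and for Mcm5 1.18% and 1.08%. Migratory dendritic-like cells, mature cells set beside these as a background, gave 0 of 14 and 0 of 54 cells for G2/M genes (upper limits 23.2% and 6.60%) at class medians of 3441 and 4048 UMIs, and 0 of 14 and 1 of 54 cells for S genes. With so few cells these limits are not below the control tumour-like G2/M share, so the zeros do not show a lower background. The thinned shares by class are plotted with their intervals.

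**Figure D3:**
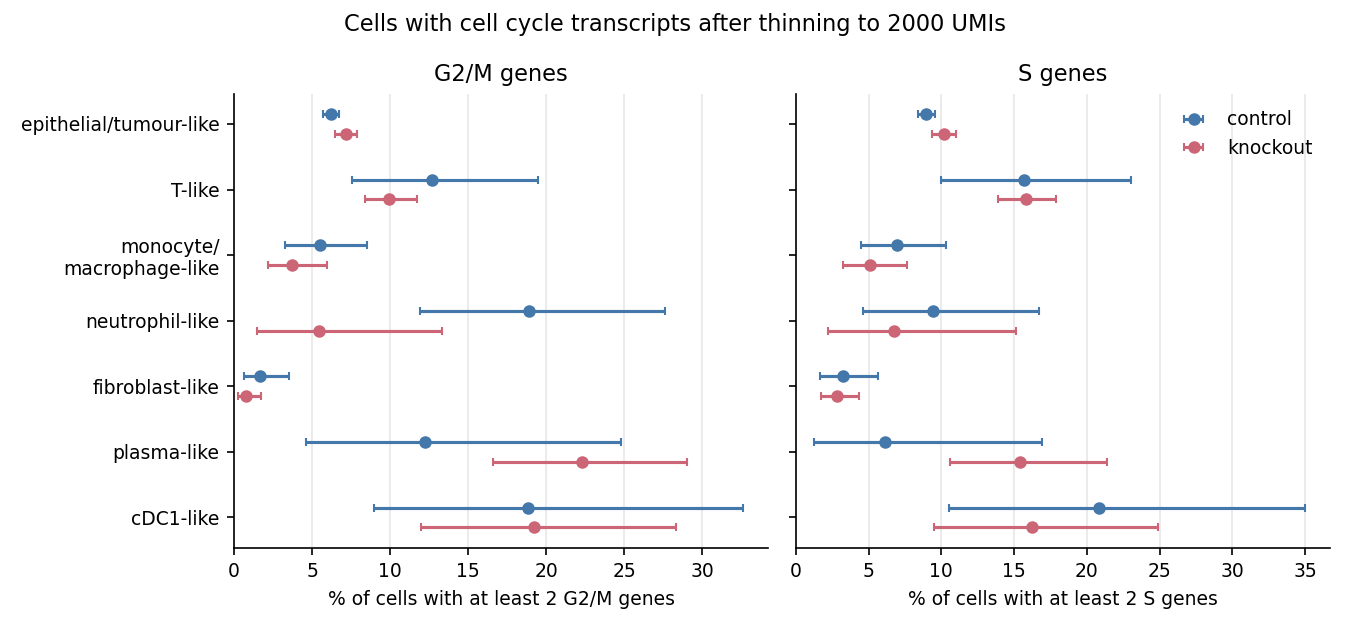
Percentage of cells holding at least 2 different G2/M genes (left) or S genes (right) after thinning cells to 2000 UMIs and leaving out shallower ones, in 7 classes and both libraries, with exact 95% Clopper-Pearson intervals. Tumour-like shares are 6.21% and 7.14% for G2/M genes, and the intervals of the 2 libraries overlap in most other classes.

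The G2/M and S genes were held by partly the same tumour-like cells. Cells with at least 2 G2/M genes after thinning carried 87.1% of the control G2/M UMIs and 86.1% of the knockout ones, as the choice of cells requires. The S genes, which did not enter that choice, put 39.6% and 38.3% of their UMIs in the same cells. In these cells S genes stood at 1212 and 1239 CPM, against 236 and 258 CPM in the remaining cells. Of the G2/M-positive cells, 53.3% in control and 53.4% in knockout cells also held at least 2 S genes, against 6.01% and 6.87% of the rest. The positive cells were deeper, with medians of 27112 and 26864 UMIs against 13411 and 15224. In the tumour-like cluster with the highest G2/M level, 430 control cells (4.76%) and 266 knockout cells (4.88%) held 59.6% and 54.1% of the class's G2/M UMIs, at 3551 and 3844 CPM. The remaining tumour-like cells held 230 and 269 CPM, a ratio of 1.17 (1.15 to 1.19).

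The level sum of the tumour-like class was made of subsets with different levels, which lay on both sides of control. Tumour-like cells were clustered again without cell cycle genes and without genes correlated with them, giving 10 subsets named here by their leading genes. The Muc5ac and Muc5b subset, with mucin genes of gastric type, held more G2/M UMIs than any other subset in both libraries and was near control, with G2/M genes at 731 and 801 CPM (ratio 1.10, 1.08 to 1.12) and S genes at 401 and 446 CPM. Of its members 0 were higher and 0 lower past 1.5-fold, where 4.39% of 14001 genes were higher and 4.36% lower. There Mki67 stood at 56.5 and 57.6 CPM, Top2a at 97.7 and 121 CPM, Pcna at 69.8 and 73.5 CPM and Mcm5 at 9.43 and 12.1 CPM. The subset led by Tmeff2 and 9030622O22Rik had low levels in both libraries, with G2/M genes at 162 and 185 CPM and S genes at 243 and 215 CPM. There 1 of 22 G2/M genes was higher past 1.5-fold, where 5.73% of 14220 genes were, and 2 of 19 S genes were lower, where 4.56% were. Its Mki67 (15.8 and 15.6 CPM), Top2a (31.1 and 38.7), Pcna (49.4 and 42.9) and Mcm5 (3.89 and 2.46) were low as well. It made up 36.3% of control and 22.8% of knockout tumour-like cells.

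The subset led by Inhba, Hilpda and Igfbp3 (Inhba encodes an activin subunit, Hilpda a hypoxia-induced lipid droplet protein) had fewer G2/M transcripts in the knockout library. Its G2/M genes stood at 538 CPM (527 to 548) in 1017 control cells and 217 CPM (212 to 223) in 1539 knockout cells, a ratio of 0.404 (0.391 to 0.417). Of 22 G2/M genes 21 were lower past 1.5-fold, where 8.74% of 13380 genes were. Its S genes were near control at 316 and 289 CPM, a ratio of 0.914 (0.884 to 0.945), and 2 of 19 were lower past 1.5-fold. None of the 41 was higher, where 5.41% of genes were. Mki67 stood at 24.8 and 13.4 CPM and Top2a at 71.0 and 34.0 CPM, while Pcna stood at 69.9 and 61.7 CPM and Mcm5 at 7.24 and 5.39 CPM. After thinning, 59 of 1005 control cells (5.87%, interval 4.50 to 7.51) and 49 of 1518 knockout cells (3.23%, interval 2.40 to 4.25) held at least 2 G2/M genes. The subset was 11.2% of control and 28.2% of knockout tumour-like cells, and the part of that shift in the lower level was not tested.

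Other subsets lay on either side. The Fbxl7 and Col3a1 subset, with matrix genes, had G2/M genes at 807 and 387 CPM (0.480, 0.443 to 0.519) and S genes at 420 and 251 CPM, from 594 and 111 cells. In it 17 of 22 G2/M genes and 11 of 19 S genes were lower past 1.5-fold, where 12.0% of 12137 genes were. None of either list was higher, where 10.7% were. After thinning, 56 of 593 control cells (9.44%, interval 7.21 to 12.1) held at least 2 G2/M genes. In the knockout library 3 of 111 cells did (2.70%, interval 0.561 to 7.70), so few knockout cells stood behind these gene counts. There Mki67 stood at 57.1 and 13.7 CPM, Top2a at 123 and 58.3, Pcna at 70.7 and 52.0 and Mcm5 at 14.5 and 4.57. The Hilpda and Ero1l subset had a higher summed G2/M level in the knockout library, at 154 and 247 CPM (1.60, 1.48 to 1.74). After thinning, few of its cells held at least 2 G2/M genes. They were 10 of 535 control cells (1.87%, interval 0.900 to 3.41) and 8 of 246 knockout cells (3.25%, interval 1.41 to 6.31). These intervals overlap. There 14 of 22 G2/M genes were higher past 1.5-fold, where 6.44% of 11433 genes were, and 0 were lower, where 4.32% were. Its S genes stood at 230 and 267 CPM. Its Mki67 stood at 9.73 and 15.7 CPM, Top2a at 21.9 and 40.4, Pcna at 42.5 and 41.9 and Mcm5 at 1.45 and 2.38. The Cxcl10 and Cxcl9 subset, with interferon-induced chemokine genes, had high levels in both libraries, with G2/M genes at 1005 and 1131 CPM and S genes at 478 and 593 CPM. Of its members 4 S genes were higher past 1.5-fold, where 3.60% of 12236 genes were, and 0 members were lower, where 4.38% were. Mki67 was level in it at 84.5 and 83.7 CPM, Top2a stood at 162 and 194, Pcna at 82.1 and 95.1 and Mcm5 at 13.8 and 19.7. Of its cells 13.6% (10.8 to 16.9) and 18.3% (15.2 to 21.7) held at least 2 G2/M genes after thinning, and it made up 5.72% and 10.6% of tumour-like cells. The Lgals4 and Dmbt1 subset, with intestinal-type genes, stood at 538 and 623 CPM for G2/M genes and 513 and 433 CPM for S genes, from 271 and 41 cells. In it 6 G2/M and 3 S genes were higher past 1.5-fold, where 8.16% of 11243 genes were, and 5 S genes were lower, where 13.5% were.

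**Figure D4:**
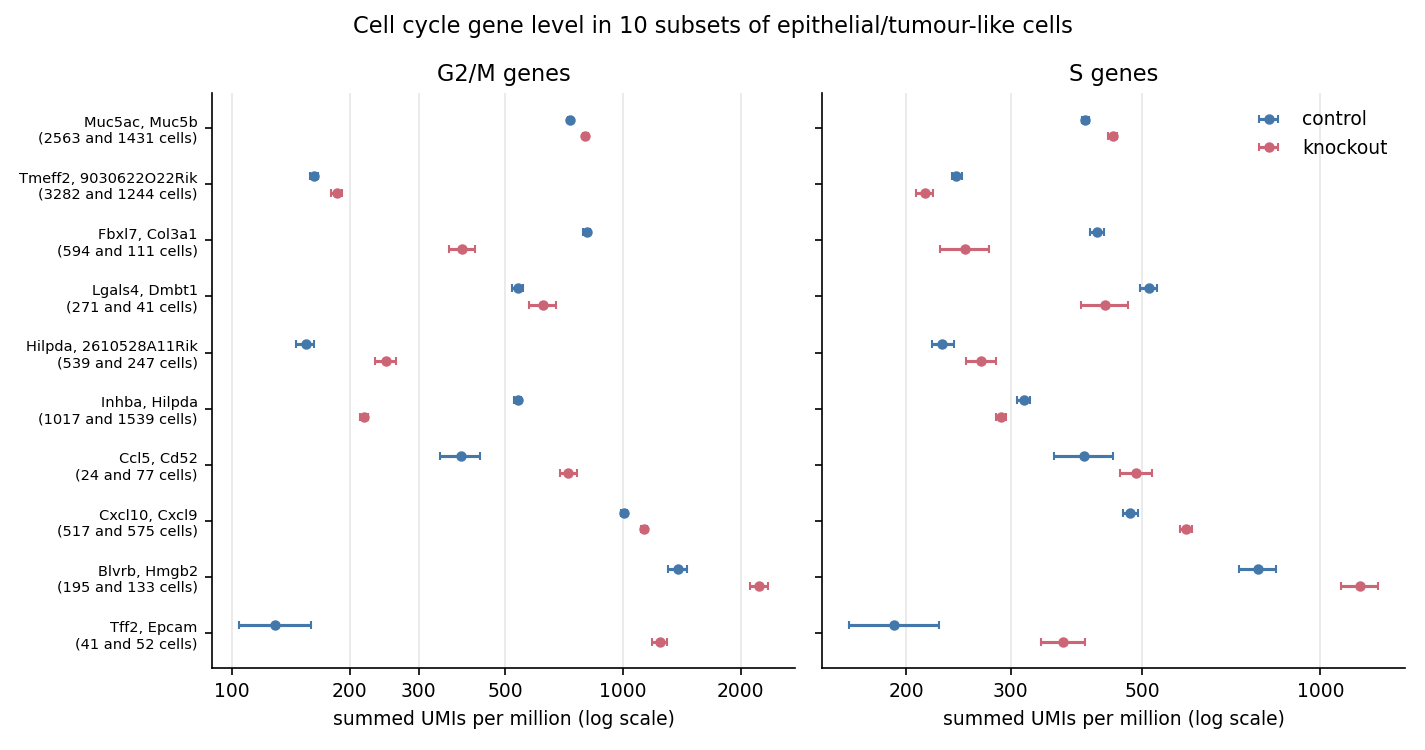
Summed level of G2/M genes (left) and S genes (right) in 10 subsets of tumour-like cells, as CPM on a log axis with exact 95% Poisson intervals, control in blue and knockout in red. Labels give 2 leading genes and the control and knockout cell counts. The Inhba and Hilpda subset shows 538 and 217 CPM for G2/M genes and 316 and 289 for S genes.

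A few small subsets carried signs of mixed or damaged cells or few cells. The Ccl5 and Cd52 subset (24 and 77 cells) held Ptprc, a leukocyte gene, at 86.9 CPM, and had G2/M genes at 384 and 725 CPM. In it 14 of 20 measured G2/M genes were higher past 1.5-fold, where 7.74% of 9600 genes were, and 0 were lower, where 16.7% were. With 291 control and 1570 knockout G2/M UMIs, many of these genes reached 20 UMIs mainly through the knockout library. That count is therefore no support for the difference. Its S genes stood at 399 and 489 CPM, with 4 of 16 measured ones higher and 2 lower past 1.5-fold. The Blvrb and Hmgb2 subset (195 and 133 cells) had a median of 2029 UMIs and erythroid genes at 361 CPM, with G2/M genes at 1378 and 2233 CPM and S genes at 784 and 1165 CPM. There 14 of 22 G2/M genes were higher past 1.5-fold, where 15.2% of 7148 genes were, and 1 was lower, where 10.5% were. Without both of these, tumour-like G2/M genes stood at 515 and 526 CPM (1.02, 1.01 to 1.03) and S genes at 344 and 362 CPM. The Tff2 and Epcam subset had G2/M genes at 129 and 1241 CPM and Mki67 at 12.9 and 144 CPM, from 41 and 52 cells. In it 21 of 21 measured G2/M genes were higher past 1.5-fold, where 9.11% of 9909 genes were, and 0 were lower, where 19.4% were. Its 90 control and 1834 knockout G2/M UMIs mean that these genes reached 20 UMIs almost only through the knockout library, so that count is no support for the difference. After thinning, 1 of 41 control cells and 6 of 49 knockout cells there held at least 2 G2/M genes. With every subset given the same weight in both libraries, the tumour-like ratio was 0.961 for G2/M genes and 1.02 for S genes.

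In T-like cells the summed S genes were higher in the knockout library while the summed G2/M genes were level, but neither held under every setting. G2/M genes summed to 865 CPM (796 to 939) in 189 control cells and 859 CPM (837 to 881) in 1631 knockout cells, a ratio of 0.993 (0.911 to 1.08). S genes summed to 433 CPM (385 to 486) and 615 CPM (596 to 634), a ratio of 1.42 (1.26 to 1.60). As a mean over cells the ratios were 0.795 for G2/M genes and 1.08 for S genes. They were 1.13 and 1.35 with a stricter cell filter, and 0.820 and 0.848 with a looser one. The direction of the S genes is therefore not fixed. Of the 41 members 8 were higher past 1.5-fold, where 10.2% of 11241 genes were, and 5 were lower, where 16.4% were. By list, 6 S genes were higher and 0 lower with a median log2 ratio of 0.48, and 2 G2/M genes were higher and 5 lower with a median of -0.12. The median over all genes was -0.07. The S sums rest on 287 control and 4172 knockout UMIs, and the G2/M sums on 573 and 5831. Many members thus passed the UMI minimum mainly through the knockout library, with few control UMIs each. The counts of members past 1.5-fold are therefore no support for the difference. The same limit applies to the T-like counts of other S phase and other G2 and M phase genes given below.

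Mcm4, Mcm3, Gins2 and Tyms were among the T-like S genes with high ratios. The helicase subunit Mcm4 stood at 21.1 CPM in control cells and 52.2 CPM in knockout cells, a ratio of 2.47 (1.45 to 4.56). Mcm3 stood at 19.6 and 43.0 CPM, a ratio of 2.19 (1.26 to 4.17). Gins2, which encodes a helicase cofactor, stood at 6.04 and 13.6 CPM, a ratio of 2.25 (0.848 to 8.41) from 4 control UMIs. Tyms stood at 22.6 and 40.7 CPM, a ratio of 1.80 (1.07 to 3.25), while the helicase subunit Mcm2 was at control (21.1 and 20.8 CPM). The 6 helicase subunits together stood at 165 and 258 CPM (1.57, 1.29 to 1.92), the 6 licensing and fork genes at 155 and 198 CPM (1.27, 1.04 to 1.57) and the 3 nucleotide synthesis genes at 86.0 and 111 CPM (1.29, 0.988 to 1.73). The named members Pcna (109 and 122 CPM), Mcm5 (19.6 and 27.1 CPM), Ccne1 (4.53 and 8.69 CPM, from 3 control UMIs) and Ccne2 (6.04 and 10.6 CPM) had intervals of the ratio that include 1.

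Among T-like G2/M genes Mki67 stood at 152 and 141 CPM, Top2a at 180 and 168 CPM and Cdk1 at 27.2 and 24.8 CPM, all level. The highest were Cdc20, the anaphase activator, at 3.02 CPM from 2 control UMIs and 11.1 CPM from 75 knockout UMIs (3.66, 0.979 to 30.8), and the centromere motor Cenpe at 18.1 and 36.4 CPM (2.01, 1.13 to 3.94). The lowest were the mitotic kinase Aurka at 12.1 and 6.19 CPM (0.512, 0.238 to 1.26), the cyclin Ccnb1 at 16.6 and 9.14 CPM, and the checkpoint kinase Bub1 at 21.1 and 13.6 CPM. Next came its relative Bub1b at 16.6 and 11.2 CPM and Tpx2, which activates Aurora A on the spindle, at 46.8 and 29.8 CPM (0.636, 0.434 to 0.961). Of 30 other S phase genes 6 were higher and 1 lower (median 0.27). Chaf1b (1.47, from 2 control UMIs) and Dscc1 (1.04, from 1) were among the highest. Exo1 (-0.55, from 3) and Rpa2 (-0.42, from 41) were among the lowest. Of these, only Chaf1b had an interval of the ratio that leaves out 1 (1.10 to 34.4). Of 35 other G2 and M phase genes with enough UMIs 5 were higher and 4 lower (median 0.16). Ttk (1.04, from 2 control UMIs), Tacc3 (0.91, from 6) and Cdca3 (0.75, from 6) were highest, with intervals that include 1. Ckap2 (-1.41, from 13), G2e3 (-0.67, from 30) and Cdc25c (-0.63, from 4) were lowest. The ratio interval of Cdc25c includes 1 (0.277 to 3.04). In the G1 list Ccnd1 was lowest (28.7 and 10.8 CPM), followed by Cdk6 (-0.26) and Cdc25a (-0.20), and Cdk2 (0.40), Cdk4 (0.36) and Ccnd3 (-0.02) were highest. In the E2F list the E2F partner Tfdp1 (0.87), E2f1 (0.50) and Lin9 (0.42) were highest and E2f5 (-0.46), Rbl2 (-0.44) and E2f4 (-0.31) lowest. Among inhibitors Btg2 (0.40), Cdkn2a (0.33) and Trp53 (0.18) were highest and Cdkn2b (-0.73), Cdkn1a (-0.61) and Ccng1 (-0.54) lowest. Some genes of these last lists also had few control UMIs, with 3 each for Cdk2 and E2f1 and 5 for Cdkn2b.

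After thinning, the shares of T-like cells holding at least 2 members had overlapping intervals, while that with a UMI of Mki67 was lower in the knockout library. At least 2 G2/M genes were held by 17 of 134 control cells (12.7%, interval 7.57 to 19.5) and 135 of 1357 knockout cells (9.95%, interval 8.41 to 11.7), and at least 2 S genes by 15.7% and 15.8%. Before thinning at least 2 G2/M genes were held by 34 of 189 and 257 of 1631 cells, and the S shares were 23.8% and 27.2%, at class medians of 2823 and 3340 UMIs. A UMI of Mki67 was left in 16.4% (10.6 to 23.8) and 8.55% (7.11 to 10.2) of cells, one of Top2a in 17.9% (11.8 to 25.5) and 11.3% (9.64 to 13.1), one of Pcna in 16.4% and 14.9% and one of Mcm5 in 1.49% and 3.17%. Before thinning the Mki67 shares lay closer, at 16.4% and 12.3% of all T-like cells. The S transcripts of the G2/M-positive cells, which the choice of cells did not use, stood at 952 and 1764 CPM, a ratio of 1.85 (1.50 to 2.32). Of these cells 41.2% in control and 61.5% in knockout cells also held at least 2 S genes. The T-like cluster with the highest G2/M level held 11 control cells and 85 knockout cells, with G2/M genes at 6575 and 4969 CPM and S genes at 1408 and 2138 CPM. In the remaining T-like cells S genes stood at 332 and 383 CPM (1.16, 0.999 to 1.34). In the control library 5 cells held 50% of the class's G2/M UMIs, against 31 cells in the knockout library. With the looser cell filter this cluster was no longer named T-like and the S ratio of the class was 0.848, and as a mean over cells it was 1.08.

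With cells sorted on all their UMIs, the level differed between kinds of T-like cell. Cells were sorted by transcripts, first by a UMI of Foxp3 (the regulatory T cell factor), then of Cd8a or Cd8b1, then of Cd4, and Cd8 cells by a UMI of a checkpoint receptor gene (Pdcd1, Havcr2, Lag3 or Tigit). Cd8 cells with a checkpoint UMI, 97 and 549 cells, had G2/M genes at 1089 and 1000 CPM (0.918, 0.832 to 1.02) and S genes at 392 and 624 CPM (1.59, 1.36 to 1.88). In them Mki67 stood at 198 and 169 CPM, Top2a at 220 and 195, Pcna at 110 and 120 and Mcm5 at 14.3 and 26.8. Cd8 cells without a checkpoint UMI had G2/M genes at 1008 and 156 CPM and S genes at 570 and 282 CPM, from 19 and 175 cells. Since 1 of 9 thinned control cells there held at least 2 G2/M genes, the control level rests on very few cells. Sorting after thinning to 1000 UMIs gave 0.991 for these G2/M genes and 1.59 for the S genes, so the direction of the S genes is not fixed. With that sorting, knockout G2/M genes stood at 767 CPM in these cells and 739 CPM in Cd8 cells with a checkpoint UMI. The gap between these 2 kinds of cell thus depended on how cells were sorted.

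Sorted on all UMIs, Foxp3 cells held the highest G2/M level of the knockout T-like cells, at 1599 CPM (1524 to 1677) from 210 cells, with S genes at 956 CPM. The 7 control Foxp3 cells held 10 G2/M UMIs (324 CPM, 155 to 596), a ratio of 4.94 (2.68 to 10.3), and 12 S UMIs (389 CPM). Sorting after thinning left 3 control Foxp3 cells and gave a G2/M ratio of 2.21 (0.851 to 8.19). With that sorting the knockout Foxp3 level was 752 CPM, below the 1014 CPM of knockout cells with none of the transcripts. The ranking was therefore not kept. Mki67 stood at 64.8 and 246 CPM, Top2a at 64.8 and 291 CPM, Pcna at 97.1 and 180 CPM and Mcm5 at 32.4 and 50.8 CPM, from 1 to 3 control UMIs each. After thinning, 0 of 5 control cells and 28 of 178 knockout cells (15.7%, interval 10.7 to 21.9) held at least 2 G2/M genes, and the 5 control cells allow a share of up to 52.2%. Cd4 cells without Foxp3 had G2/M genes at 271 CPM from 23 UMIs in 22 control cells and 607 CPM in 313 knockout cells (2.24, 1.48 to 3.55). Their S genes stood at 471 and 676 CPM. Mki67 stood at 35.3 and 112 CPM, Top2a at 82.5 and 139, Pcna at 82.5 and 135 and Mcm5 at 35.3 and 28.0. The share with at least 2 G2/M genes after thinning was not higher, at 2 of 20 (10.0%) and 18 of 269 cells (6.69%). Sorting after thinning gave a G2/M ratio of 1.51 (0.872 to 2.87), which includes 1. Cells with none of these transcripts had G2/M genes at 461 and 407 CPM and S genes at 546 and 349 CPM (0.639), a ratio that reversed to 1.14 with sorting after thinning. Of the G2/M-positive T-like cells, 12 of 17 in the control library were Cd8 cells with a checkpoint UMI and 0 were Foxp3 cells. In the knockout library 67 of 135 (49.6%) were Cd8 cells with a checkpoint UMI and 28 (20.7%) were Foxp3 cells. Foxp3 cells were also 3.70% and 12.9% of all T-like cells.

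**Figure D5:**
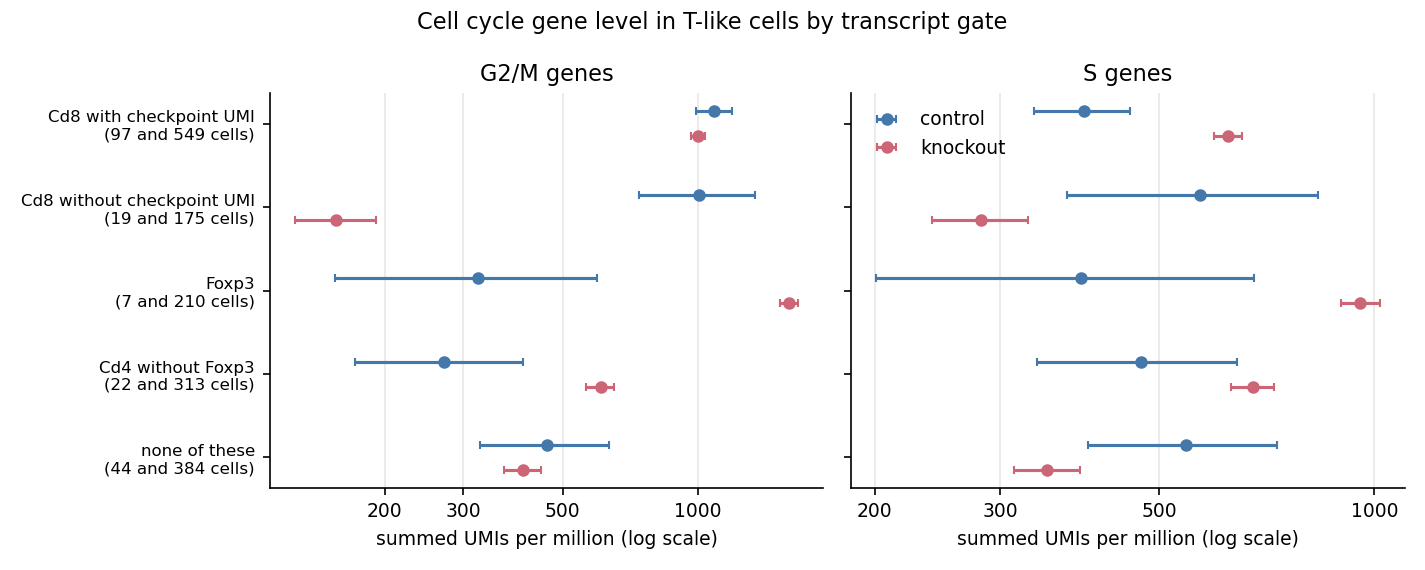
Summed level of G2/M genes (left) and S genes (right) in T-like cells sorted by transcripts, as CPM on a log axis with exact 95% Poisson intervals, control in blue and knockout in red, with the control and knockout cell counts. Cd8 cells with a checkpoint UMI lie together for G2/M genes (1089 and 1000 CPM), and Foxp3 cells lie apart (324 from 7 control cells, 1599 from 210 knockout cells).

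In fibroblast-like cells, the class with the lowest summed G2/M level of the 5, G2/M genes were lower in the knockout library. They summed to 123 CPM (113 to 134) in 383 control cells and 34.2 CPM (29.9 to 38.8) in 705 knockout cells, a ratio of 0.278 (0.237 to 0.324). S genes summed to 168 and 132 CPM, a ratio of 0.787 (0.714 to 0.867). With at least 20 UMIs were 28 members, of which 13 were lower past 1.5-fold, where 7.26% of 12601 genes were, and 2 were higher, where 12.6% were. The lower ones were 10 of 13 measured G2/M genes and 3 of 15 measured S genes. Members with few UMIs pass this minimum mainly where 1 library is high, and the G2/M sums rest on 559 control and 235 knockout UMIs. The count of lower members is therefore no support for the difference. At a minimum of 100 UMIs 5 members were left, of which 0 were lower. The medians over those that passed 20 UMIs, -2.18 for G2/M genes and -0.35 for S genes, describe only those genes.

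The lowest fibroblast-like members were Ube2c, the ubiquitin-conjugating enzyme of the anaphase-promoting complex, at 15.8 CPM from 72 UMIs and 1.16 CPM from 8 UMIs, and Cenpf, an outer kinetochore protein, at 12.8 and 1.16 CPM. Mki67 stood at 11.2 and 1.31 CPM, Birc5 at 10.8 and 1.45 CPM and Ccnb2 at 3.74 and 0.436 CPM. The highest were the licensing factor Cdc6 at 1.98 and 3.49 CPM and the kinesin Kif20b at 2.20 and 3.63 CPM, and Mcm7 (0.03), Tyms (0.01) and Mcm4 (-0.02) were at control. The difference rested on few cells: 3 control cells held 50% of the G2/M UMIs, 1 of them 27.0%, against 38 cells in the knockout library. At least 2 G2/M genes were held by 6 of 368 control cells (1.63%) and 5 of 673 knockout cells (0.743%) after thinning, and by 6.01% and 2.84% before it. At least 2 S genes were held by 3.26% and 2.82% after thinning and 36.6% and 28.7% before it. Without the 6 and 5 cells G2/M genes stood at 40.0 and 26.1 CPM. The class markers of tumour cells stood at 575 CPM in the 6 control cells and 456 CPM in the other control cells, and at 201 CPM in the other knockout cells. Removing cells with high tumour markers gave a ratio of 0.355, and keeping called doublets gave 0.620.

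In monocyte/macrophage-like cells, the class in which Csf1r-Cre is meant to act, both lists were lower in the knockout library. G2/M genes summed to 276 CPM (255 to 297) and 195 CPM (179 to 212), a ratio of 0.708 (0.632 to 0.793). S genes summed to 284 CPM (263 to 305) and 194 CPM (178 to 211), a ratio of 0.684 (0.610 to 0.766). The G2/M sums rest on few cells, as 7 control cells and 4 knockout cells held 50% of the G2/M UMIs of their library. Of 32 members with at least 20 UMIs 18 were lower past 1.5-fold, where 10.2% of 10264 genes were, and 2 were higher, where 8.12% were. The lower ones were 10 of 14 measured S genes and 8 of 18 measured G2/M genes, and the median log2 ratio was -0.81 for the measured S genes and -0.27 for the measured G2/M genes, beside -0.02 over all genes. Members with few UMIs pass this minimum mainly where 1 library is high. These counts and medians therefore describe only those that passed.

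By summed level the roles differed in these cells. Since 1 knockout cell held 31.0% of the knockout G2/M UMIs of the class, the ratios of the G2/M roles may rest on that cell. Mki67 stood at 50.4 and 23.6 CPM and Top2a at 52.9 and 20.4 CPM, a joint ratio of 0.426 (0.341 to 0.530), and the 6 helicase subunits at 87.7 and 43.6 CPM (0.497, 0.396 to 0.624). The 3 centromere genes stood at 49.6 CPM in both (interval of the ratio 0.779 to 1.29), the 5 checkpoint and anaphase genes had a ratio of 0.970 (0.742 to 1.27), and the licensing and fork genes 0.887 (0.761 to 1.03). The lowest members were Uhrf1, which keeps DNA methylation through replication, at 10.2 and 2.11 CPM, the cyclin Ccna2 at 6.97 and 1.41 CPM, Mcm2 at 9.42 and 2.46 CPM, Ccne1 at 7.79 and 2.11 CPM and Mcm7 at 15.2 and 4.57 CPM. The highest were Aurka at 2.87 and 5.63 CPM, Kif20b at 4.51 and 7.39 CPM, Ube2c at 15.2 and 19.0 CPM, the centromeric histone Cenpa at 22.1 and 26.7 CPM and Bub1 at 3.69 and 4.57 CPM. Pcna, the most abundant S transcript there, stood at 104 and 96.0 CPM. After thinning, 18 of 329 control cells (5.47%) and 16 of 430 knockout cells (3.72%) held at least 2 G2/M genes, and 6.99% and 5.12% held at least 2 S genes. Before thinning the G2/M shares were 6.88% and 6.43% and the S shares 17.5% and 13.4%, at class medians of 2873 and 3981 UMIs.

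The macrophage-like clusters differed in direction. The cluster led by C1qa, C1qb and Ccl8 had G2/M genes at 609 CPM in 127 control cells and 245 CPM in 168 knockout cells, while the cluster led by Arg1, Mmp12 and Chil3 had 157 CPM in 155 control cells and 273 CPM in 86 knockout cells. Most control cells of the class lay in the latter cluster and in one led by Arg1 and Pid1, and most knockout cells in the C1qa cluster and in one led by Lyz2, Arg1 and Ms4a6d. In the knockout library 1 cell held 172 of the 555 G2/M UMIs of the class (31.0%). Only the C1qa cluster (237 knockout G2/M UMIs) and the Arg1, Mmp12 and Chil3 cluster (241) held enough to contain it. That cell therefore made up most of the knockout G2/M UMIs of 1 of these 2 clusters, and the difference in direction may rest on it. The 18 positive control cells held tumour markers at 1951 CPM (4 of 7 markers seen) and a median of 6.07% mitochondrial UMIs, against 336 CPM and 1.71% in the other control cells. The 16 positive knockout cells held 166 CPM (3 of 7 markers seen) and 2.15%, against 212 CPM and 1.02%. With cells high in tumour markers left out, an alternative chosen after seeing the data, the class ratio was 0.688 for G2/M genes and 0.689 for S genes.

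Neutrophil-like cells held the G2/M genes mainly in 1 cluster of immature type. G2/M genes summed to 1379 CPM (1300 to 1461) in 293 control cells and 795 CPM (715 to 880) in 185 knockout cells, a ratio of 0.576 (0.511 to 0.649), and S genes to 432 and 314 CPM (0.726, 0.594 to 0.883). As a mean over cells the S ratio was 1.03, so the direction of the S genes is not fixed. Of 31 members with at least 20 UMIs 19 were lower past 1.5-fold, where 18.7% of 5785 genes were, and 0 were higher, where 16.8% were. The median log2 ratio was -0.71 for G2/M genes and -0.57 for S genes. Members with few UMIs pass this minimum mainly where 1 library is high, so these counts and medians describe only those that passed. At a minimum of 100 UMIs 5 members were left, of which 3 were lower. The cluster with the granule genes Camp, Ngp and Ltf, which mark neutrophil precursors, was 54 control cells (18.4% of the class) and 11 knockout cells (5.95%) and held 96.0% and 94.8% of the G2/M UMIs, and 69.7% and 62.1% of the S UMIs. Within it G2/M genes were not lower but stood at 2680 and 3314 CPM (1.24, 1.09 to 1.40). In the remaining neutrophil-like cells they stood at 108 and 53.2 CPM (0.494, 0.273 to 0.862).

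Of the 31 measured neutrophil-like members 29 had a log2 ratio below 0 and 2 above. The lowest were Mcm7 at 23.0 CPM and 2.17 CPM from 1 knockout UMI (0.0941, 0.00226 to 0.592), Plk1 at 26.7 and 6.50 CPM from 3 knockout UMIs (0.244, 0.0467 to 0.811), Mcm4 at 30.3 and 8.66 CPM, Ccnb1 at 24.2 and 8.66 CPM and Cenpf at 70.3 and 30.3 CPM. The highest were Ccna2 at 17.0 and 21.7 CPM (1.28, 0.507 to 3.09), Pcna at 95.7 and 113 CPM (1.18, 0.813 to 1.69), Aurkb (-0.01), Cenpe (-0.07) and Rrm2 (-0.13). Mki67 stood at 197 and 104 CPM and Top2a at 166 and 113 CPM. After thinning, 20 of 106 control cells (18.9%, interval 11.9 to 27.6) and 4 of 74 knockout cells (5.41%, interval 1.49 to 13.3) held at least 2 G2/M genes, against 8.53% and 2.70% of all cells before thinning. In the knockout library 2 cells held 50% of the G2/M UMIs.

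Several smaller classes, with fewer than 100 cells in a library, are given by value. Plasma-like cells had G2/M genes at 329 CPM (286 to 377) in 53 control cells and 1443 CPM (1400 to 1487) in 196 knockout cells, and S genes at 269 and 582 CPM. A single control cell held 54.8% of the control G2/M UMIs. The cycling plasma-like cluster was 2 control cells (3.77%) and 37 knockout cells (18.9%) at about the same level of 4094 and 4291 CPM, and the other plasma-like cells stood at 128 and 386 CPM. After thinning, 6 of 49 and 42 of 188 plasma-like cells held at least 2 G2/M genes. Type 1 dendritic-like cells (cDC1) had level G2/M genes, at 1208 and 1180 CPM (0.977, 0.882 to 1.08), and lower S genes, at 812 and 390 CPM (0.481, 0.416 to 0.555), from 54 and 115 cells. Their helicase subunits stood at 253 and 121 CPM and their licensing and fork genes at 301 and 138 CPM. In the control library 2 cells held 50% of the G2/M UMIs and 4 cells held 50% of the S UMIs. After thinning, at least 2 S genes were held by 10 of 48 control cells (20.8%, interval 10.5 to 35.0). In the knockout library 16 of 99 cells did (16.2%, interval 9.53 to 24.9), so these intervals overlap. Acinar-like cells had G2/M genes at 71.8 and 189 CPM and S genes at 198 and 185 CPM, from 32 and 269 cells. NK-like cells stood at 111 and 145 CPM for G2/M genes (1.31, 0.760 to 2.41) and 349 and 344 CPM for S genes. B-like cells gave 0 G2/M UMIs in 8 control cells, an upper limit of 280 CPM, and 151 CPM in 450 knockout cells. Unnamed clusters stood at 306 and 260 CPM for G2/M genes and 267 and 195 CPM for S genes.

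Mki67 and Mcm5 stood for the lists when all genes were ranked by likeness over the 10 pools formed by the 5 compared classes in both libraries. Closest to Mki67 among 18767 genes were Knl1 (Pearson r = 0.985), Incenp (0.982), Cenpa (0.973), Dlgap5 (0.969) and Tpx2 (0.964), of which Cenpa and Tpx2 are members. Closest to Mcm5 were Diaph3 (0.971), Nasp (0.966), Dbf4 (0.953), Hist1h2ae (0.949) and Pank2 (0.949). These pools share libraries, depth and cell classes, so the values describe the pools and are not tested.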

How the data were processed

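Single-cell libraries were made with the 10x Chromium 3′ v3.1 kit, per the labels' protocols. The authors deposited raw UMI counts per gene and barcode, made with Cell Ranger 8.0.0 per the file headers, while the submitters' processing notes name Cell Ranger 3.1.3 and mm10. The annotation used for counting is not given in the sources used here. The 41 members and all other lists were chosen with earlier results of these data known.

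Cells needed 500 detected genes or more, with no more than 15% of UMIs from mitochondrial genes, and Scrublet in scanpy 1.11.5 (expected rate 0.08) removed 148 control and 341 knockout doublets. Clusters came from 2000 variable genes without cell cycle genes, 30 components, 15 neighbours and Leiden resolution 1. A cluster was named from markers when at least 3 were detected and no other class came within 0.1 of its score, a margin set after the clusters had been seen. Tumour-like cells were clustered again at resolution 0.5, also without genes correlated with the members past 0.15, a limit set after seeing the data.

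UMIs were summed per class and library. Intervals are 95% Poisson, conditional binomial (for ratios) and Clopper-Pearson (for shares). Log2 ratios add 1 UMI to each sum and need 20 UMIs in all. A gene counted as higher or lower past 1.5-fold. With 1 library a group, no test was run, and the scripts were tested on simulated data. Named genes were the 5 highest and 5 lowest members of each compared class and 8 preset genes in tumour-like and T-like cells. Mki67, Top2a, Pcna and Mcm5 stood for the members in subsets, and the 3 highest and 3 lowest genes for each other list, of which some are not reported here. Neutrophil-like cells had been planned as a non-dividing background, but 1 of their clusters held most of their G2/M UMIs, so migratory dendritic-like cells served instead. Alternatives were other cell filters, doublets kept, other resolutions, thinning depths, minimums, folds and pseudocounts.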

Additional observations from a re-analysis of the deposited data

How the results depend on the processing

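No paired analysis was possible because each group was 1 library. Of 178 alternative values, 46 moved and 8 reversed, and the other 124 stayed within the counting interval or tolerance of the reported value, which for small classes is wide: the fibroblast-like ratio of G2/M shares went from 0.456 to 0.182 at 3 members a cell. The causes were not tested except where named.

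In tumour-like cells the G2/M ratio was 1.03 with cell cycle genes left in the clustering and 1.13 as a mean over cells, and it reversed to 0.961 with subsets weighted alike. That weighted value was 0.853 at resolution 1 and 0.871 with only the listed genes left out, a setting chosen after seeing the data. The S ratio was 1.09 as a mean over cells and 1.02 with subsets weighted alike, and the weighted value reversed to 0.975 and 0.986 under the same 2 settings.

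In T-like cells the G2/M ratio was 1.13 with the strict filter, 0.820 with the loose one and 0.795 as a mean over cells. The S ratio was 1.08 as a mean over cells and reversed to 0.848 with the loose filter, under which 14 control and 101 knockout cells with 410 and 4500 G2/M UMIs were no longer T-like. Members higher numbered 5 at 100 UMIs and 3 at a fold of 2. Members lower numbered 2 at 100 UMIs, 1 at a fold of 2, 3 with the strict filter and 12 with the loose one. The median reversed to -0.17 with 5 UMIs added. Sorting after thinning gave Foxp3 G2/M 2.21, Cd8 without checkpoint UMI 0.991 for G2/M and 1.59 (reversed) for S, and 1.14 (reversed) for S in cells with none of the transcripts.

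The fibroblast-like G2/M ratio was 0.620 with doublets kept, 0.192 at resolution 0.5, 0.325 as a mean over cells and 0.355 without cells high in tumour markers (chosen after seeing the data). Its S ratio was 0.925 with doublets and 0.622 at resolution 0.5. Members higher numbered 0 at 100 UMIs and at a fold of 2, and 1 with either filter. Members lower numbered 0 at 100 UMIs, where 5 members were left. The median was -1.18 with no minimum. At 1000 UMIs the ratios of shares were 0.0778 for G2/M and 0.181 for S.

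In monocyte/macrophage-like cells the G2/M ratio was 0.852 with doublets and the S ratio 0.878 as a mean over cells. Members higher numbered 0 at 100 UMIs, at a fold of 2 and with the strict filter, and members lower 3 at 100 UMIs and 11 at a fold of 2. The ratio of S shares was 0.255 at 3 members a cell. In neutrophil-like cells the G2/M ratio was 0.501 as a mean over cells and 0.494 without the Camp cluster (chosen after seeing the data). The S ratio was 0.892 with doublets and reversed to 1.03 as a mean over cells. Members lower numbered 3 at 100 UMIs and 7 at a fold of 2, and the median was -0.45 with 5 UMIs added.

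Few cells limit the small classes: in control T-like, fibroblast-like, plasma-like and cDC1-like cells 5, 3, 1 and 2 cells held 50% of the G2/M UMIs.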

Other observations

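Across classes the S and G2/M genes did not keep 1 ratio to each other. In cDC1-like cells the kinases and cyclins stood at 183 CPM in the control library and 217 CPM in the knockout library, while the nucleotide synthesis genes stood at 160 and 93.9 CPM. In plasma-like cells the kinases and cyclins stood at 33.2 and 253 CPM and the helicase subunits at 90.2 and 196 CPM. The cycling plasma-like cluster held S genes at 2688 CPM in its 2 control cells and 1739 CPM in its 37 knockout cells. In the Camp, Ngp and Ltf cluster of neutrophil-like cells S genes stood at 610 and 857 CPM, and in the other neutrophil-like cells at 259 and 154 CPM. These values describe 1 library a group.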
